A study of Mus musculus with 9 samples.

Results

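The miRNAs described here were mmu-miR-193a-5p, mmu-miR-193a-3p, mmu-miR-193b-3p and mmu-miR-365-3p (below without the species prefix mmu, for mouse), measured in extracellular vesicles released by cultured mouse podocytes. They were chosen by name, for the link of miR-193a to loss of WT1 in podocytes and for the neighbouring miR-193b and miR-365 genes. The rule refers to no measured value, but it was set with earlier results of these data known. The members are 4 of the 1915 mouse miRNA identifiers in each library. Of these 4, miR-193a-5p, miR-193b-3p and miR-365-3p were listed in at least 1 library and passed the filter on low counts, so 3 could be tested, and miR-193a-3p was listed at 0 everywhere. The other strands of the same hairpins, miR-193b-5p, miR-365-1-5p and miR-365-2-5p, are given beside them.

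The cells were a conditionally immortalized podocyte line, which proliferates at 33 °C with interferon-γ and was differentiated for 10 days at 37 °C without it, in medium with 5% fetal bovine serum. High glucose cells then received 30 mM glucose for 48 h. Mannitol cells received 24.7 mM mannitol on top of 5.3 mM glucose, which raises osmolality without raising glucose, and normal glucose cells received 5.3 mM glucose. Vesicles were precipitated with a polymer reagent from the supernatants, and small RNA libraries were made from their RNA, with 3 libraries per group. All 3 groups come from this 1 line in serum-containing medium, and the labels give neither a serum vesicle depletion step nor separate cultures for the libraries of a group. The p-values below therefore measure only the spread between these libraries, which may be technical.

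Podocytes cover the outside of the glomerular capillaries with interdigitating foot processes, and WT1 is the zinc-finger transcription factor that keeps their gene programme, nephrin and podocalyxin included, switched on. In mice, raising miR-193a in podocytes lowers WT1 and leads to glomerular scarring. A miRNA hairpin is cut into a 5p and a 3p strand, either of which can be loaded into Argonaute, and bases 2 to 8 of the loaded strand, the seed, pair with target transcripts. In mice, miR-193b and miR-365 are also known from brown fat, where a role in adipocyte differentiation has been reported.

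The mature sequences show which strands could share targets and which could be told apart by sequencing. They are from RefSeq, build GRCm38.p6, in which all 7 strands were found by name among 1679 mature names, and they are written 5′ to 3′ with the seed in capitals.
miR-193a-5p: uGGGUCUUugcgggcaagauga
miR-193a-3p: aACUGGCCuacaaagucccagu
miR-193b-3p: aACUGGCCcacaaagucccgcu
miR-365-3p: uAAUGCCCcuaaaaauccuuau
miR-193b-5p: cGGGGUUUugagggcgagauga
miR-365-1-5p: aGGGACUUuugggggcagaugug
miR-365-2-5p: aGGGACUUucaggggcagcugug

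The strands miR-193a-3p and miR-193b-3p had the seed ACUGGCC in common, and no other mature name of the table had it. They were identical at 19 of 22 bases, with the substitutions U9C, A20G and G21C from miR-193a-3p to miR-193b-3p, counted from 1 at the 5′ end. The seeds of miR-193a-5p and miR-193b-5p were different: the 5p strands matched at 17 of 22 bases, and U5G and C6U lay within the seed. The miR-365-3p strand is the same from both of its hairpins, so its reads cannot be assigned to Mir365-1 or Mir365-2. Only the 5p strands separate these hairpins, at U10C, G11A and A19C from miR-365-1-5p to miR-365-2-5p.

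The hairpins lie in pairs on the plus strand, and both miR-193 hairpins are shown because 5p reads were listed from both and 3p reads from Mir193b only. Mir193a is at chr11:79711969-79712034 and Mir365-2 at chr11:79726400-79726511, with 14365 bases between them. Mir193b is at chr16:13449523-13449601 and Mir365-1 at chr16:13453840-13453926, 4238 bases apart. In the GENCODE M21 annotation, the chromosome 16 hairpins lie inside the antisense gene Gm15738 of the minus strand, and no annotated gene other than the hairpins themselves overlaps the chromosome 11 hairpins. In the sequences below the 5p and 3p strands are in capitals, 5p first.
Mir193a: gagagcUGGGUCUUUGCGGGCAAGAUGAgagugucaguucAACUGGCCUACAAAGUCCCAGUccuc
Mir193b: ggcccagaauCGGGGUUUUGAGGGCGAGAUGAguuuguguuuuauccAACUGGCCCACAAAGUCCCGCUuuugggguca

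Because of the link to WT1, the mouse Wt1 transcript was searched for the reverse complements of the member seeds. The longest coding Wt1 transcript in GENCODE M21 has 3090 bases in 10 exons and was read on the transcript strand only. The motif GGCCAGT, the complement of the miR-193a-3p and miR-193b-3p seed, occurred once, in the coding part of exon 1 at chr2:105127292-105127298 on the plus strand. The motif AAGACCC, the complement of the miR-193a-5p seed, also occurred once, in the coding part of exon 9 at chr2:105169985-105169991. Both are shown with their surroundings, with the motif in capitals.
Wt1 exon 1: tgcacttctcgGGCCAGTtcaccggtaca
Wt1 exon 9: ccgaccatctgAAGACCCacaccaggact

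Such motifs are common. Among 5042 longest coding transcripts with a length within 20% of that of the Wt1 transcript, 21.8% held GGCCAGT and 22.5% held AAGACCC. The complement of the miR-365-3p seed, GGGCATT, was not in the transcript, and 14.5% of the same transcripts held it. These matches describe letters only.

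Total miRNA counts per library were 725211 to 2553690 in high glucose, 1329426 to 2269776 with mannitol and 1087144 to 1539514 in normal glucose, and 361 of the 479 miRNAs listed anywhere were tested. Counts from 1 to 9 occur in none of the tables, and a listed 0 was therefore read as anything up to 9 reads. Levels are given as CPM, the count per 1000000 miRNA counts of the library, and 9 reads amount to 3.52 to 12.4 CPM. The 5p strands of miR-30a to miR-30e, from a family abundant in podocytes, summed to 149949 to 224982 CPM in high glucose. The sums were 106713 to 177083 CPM in mannitol libraries and 126420 to 140209 CPM in normal glucose. miRNAs known from other cell types were present. A list of 9 blood, immune and liver miRNAs, 7 of them tested, summed to 16480 to 29940 CPM in high glucose, 19134 to 44102 CPM in mannitol libraries and 21296 to 38946 CPM in normal glucose, with miR-142a-3p at 0 throughout. The 4 kidney tubule miRNAs, 3 of them tested and miR-204-5p at 0 throughout, summed to 3323 to 5008 CPM in high glucose, 2348 to 3211 CPM in mannitol libraries and 2286 to 3483 CPM in normal glucose. No miRNA of these lists, nor of the endothelial (2 miRNAs) and mesenchymal (7 miRNAs) lists, passed in any comparison of the fit over all 9 libraries. The 4 brown fat and muscle miRNAs summed to 1412 to 1775 CPM in high glucose, 1389 to 6034 CPM in mannitol libraries and 1691 to 3049 CPM in normal glucose. None of them passed in that fit, but miR-1a-3p was called when no filter was used. The part of any of these lists in the member values was not tested. In such bulk vesicle RNA, fewer vesicles or cells of a type and less RNA in each cannot be told apart.

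All members were minor species of the vesicle miRNA. Together they summed to 106, 77.5 and 110 CPM in high glucose replicates 1, 2 and 3, to 175, 92.5 and 167 CPM in mannitol libraries and to 188, 80.9 and 120 CPM in normal glucose. This is 0.00775% to 0.0188% of miRNA counts. By mean CPM over the 9 libraries miR-193a-5p ranked at place 188 of 479 listed miRNAs (63.7 CPM), miR-193b-3p at 203 (46.6 CPM) and miR-365-3p at 278 (14.0 CPM). In 7 of 9 libraries miR-193a-5p was the most abundant member, and in high glucose replicate 3 and normal glucose replicate 1 it was miR-193b-3p. As a description over 9 libraries, log2 TMM-scaled CPM had a Pearson r with the log2 total count of 0.124 for miR-193a-5p, 0.496 for miR-193b-3p and 0.210 for miR-365-3p.

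Of the miR-193a strands, miR-193a-5p was the one above the listing limit. It had 49, 56 and 104 reads in high glucose replicates 1 to 3, which are 67.6, 43.9 and 40.7 CPM. Mannitol libraries had 158, 80 and 238 reads, or 119, 50.4 and 105 CPM. Normal glucose libraries had 83, 41 and 61 reads, or 53.9, 37.7 and 55.1 CPM. Mannitol replicates 1 and 3 stood above all other libraries, while mannitol replicate 2 lay inside the range of both other groups. The group means were 50.7 ± 14.7 CPM for high glucose, 91.4 ± 36.2 CPM for mannitol and 48.9 ± 9.71 CPM for normal glucose (SD, n = 3 each). The coefficient of variation between libraries was 28.9% in high glucose, where counting alone would give 12.6%. With mannitol it was 39.6%, against 8.76% from counting, and in normal glucose 19.9%, against 13.3% from counting.

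The partner strand miR-193a-3p, which has the seed in common with miR-193b-3p, was listed at 0 in all 9 libraries. With 9 reads as the most that a listed 0 allows, miR-193a-5p was at least 5.44-fold, 6.22-fold and 11.6-fold higher than miR-193a-3p in high glucose replicates 1 to 3. The bounds were at least 17.6-fold, 8.89-fold and 26.4-fold with mannitol, and at least 9.22-fold, 4.56-fold and 6.78-fold in normal glucose. Each bound follows the 5p count of the library, so their differences between groups are not differences in the use of the strands. A 3p strand below the listing limit was common: of 100 hairpins with a 5p strand listed in all 9 libraries, 38 (38.0%) had a 3p strand in no library. Among the 28 hairpins whose 5p mean was within 2-fold of miR-193a-5p, 11 (39.3%) had none.

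Of the strands with the miR-193 3p seed, miR-193b-3p was the one above the listing limit. It had 18, 43 and 135 reads in high glucose replicates 1 to 3, or 24.8, 33.7 and 52.9 CPM. Mannitol libraries had 55, 53 and 91 reads, or 41.4, 33.4 and 40.1 CPM. Normal glucose libraries had 180, 36 and 48 reads, or 117, 33.1 and 43.4 CPM. Normal glucose replicate 1 stood apart: its 95% counting interval of 100.5 to 135 CPM lay above those of all other libraries, of which the highest was 44.3 to 62.6 CPM in high glucose replicate 3. Counting intervals here are exact Poisson intervals and cover counting error only. The other 8 libraries lay between 24.8 and 52.9 CPM, and the group means were 37.1 ± 14.3 CPM for high glucose, 38.3 ± 4.30 CPM for mannitol and 64.5 ± 45.7 CPM for normal glucose (SD, n = 3 each). The mannitol libraries varied among themselves by 11.2%, close to the 12.7% of counting alone, and the normal glucose libraries by 70.9%. By count, miR-193b-3p was at least 2.0-fold (high glucose replicate 1) to 20.0-fold (normal glucose replicate 1) higher than miR-193a-3p.

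The other strand of the same hairpin, miR-193b-5p, was also listed in every library. It had 16.5, 11.7 and 14.1 CPM in high glucose replicates 1 to 3, 26.3, 14.5 and 38.8 CPM in mannitol libraries, and 13.0, 48.8 and 28.0 CPM in normal glucose. Normal glucose replicate 1, the highest library for miR-193b-3p, was the lowest of its group for miR-193b-5p, and normal glucose replicate 2 was the reverse. The edgeR log2 fold change of miR-193b-5p was -1.05 (SE 0.66) in high against normal glucose and -0.76 (SE 0.65) in high glucose against mannitol, and neither passed. The value against normal glucose was -0.37 without normal glucose replicate 2, and that against mannitol was -0.34 without mannitol replicate 3 and -1.41 when counts were scaled by the constant per library of the deposited normalized values. The count of miR-193b-3p over that of miR-193b-5p was 1.5, 2.87 and 3.75 in high glucose replicates 1 to 3, 1.57, 2.30 and 1.03 with mannitol, and 9.0, 0.679 and 1.55 in normal glucose. The 3p strand was thus the more abundant in 8 of 9 libraries. The SD of this log2 ratio over the libraries was 1.10, the highest of the 41 hairpins with both strands listed in all 9 libraries (median 0.52). It was also the highest of the 20 of them whose rarer strand was within 2-fold of miR-193b-5p (median 0.59). This ratio was added after the values had been seen. Its differences in mean log2 ratio were 0.26 for high against normal glucose (exact permutation p = 1), 0.70 for high glucose against mannitol (exact permutation p = 0.3) and -0.45 for mannitol against normal glucose (exact permutation p = 0.9). The smallest p that 3 against 3 libraries can give is 0.1. Leaving out 1 library turned 0.26 to -0.56 (without normal glucose replicate 2) or -0.03 (without high glucose replicate 3), and -0.45 to 0.60 (without normal glucose replicate 1).

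The rarest member listed was miR-365-3p, which stands near the listing limit. It had 10, 0 and 43 reads in high glucose replicates 1 to 3, or 13.8, 0 and 16.8 CPM, where the listed 0 of replicate 2 allows up to 7.05 CPM. Mannitol libraries had 20, 14 and 50 reads, or 15.04, 8.81 and 22.0 CPM. Normal glucose libraries had 27, 11 and 24 reads, or 17.5, 10.1 and 21.7 CPM. The 3 groups overlapped, and with 10 to 50 reads where it was listed, counting error was large: with mannitol the coefficient of variation was 43.2%, against 21.7% from counting alone, and in normal glucose 35.6%, against 23.8% from counting alone.

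Only the chromosome 11 copy left a 5p strand above the limit. The strand miR-365-1-5p was listed at 0 in all 9 libraries. The strand miR-365-2-5p had 0, 0 and 19 reads in high glucose replicates 1 to 3, 19, 28 and 54 reads with mannitol, and 18, 12 and 13 reads in normal glucose. The listed high glucose library had 7.44 CPM, the mannitol libraries 14.3, 17.6 and 23.8 CPM and the normal glucose libraries 11.7, 11.04 and 11.7 CPM. As listed, high glucose lay below both other groups and mannitol above normal glucose. Of all 361 tested miRNAs, 25 (6.93%) lay lower without overlap in high against normal glucose and 28 (7.76%) in high glucose against mannitol. In mannitol against normal glucose 8 (2.22%) lay higher without overlap. The limit of 12.4 CPM that the 0 of high glucose replicate 1 allows lies above all normal glucose values, so that non-overlap of high and normal glucose rests on the listing limit, and it lies below all mannitol values. In the edgeR fit the log2 fold change of miR-365-2-5p was -1.91 (SE 1.45) in high against normal glucose and -2.55 (SE 1.47) in high glucose against mannitol. It was 0.65 (SE 1.38) in mannitol against normal glucose, and none passed. With the title number as a block it was -2.82 in high against normal glucose and -3.30 in high glucose against mannitol. With listed zeros set to 9 reads, the values were -0.38 in high against normal glucose and -1.19 in high glucose against mannitol, so their size depends on the listing limit. In high glucose against mannitol its unadjusted p was under 0.05 with zeros so set in edgeR, with DESeq2, with limma-voom and without high glucose replicate 3. The smallest adjusted p of these, in edgeR with zeros set to 9 reads, was 0.297.

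**Figure D1:**
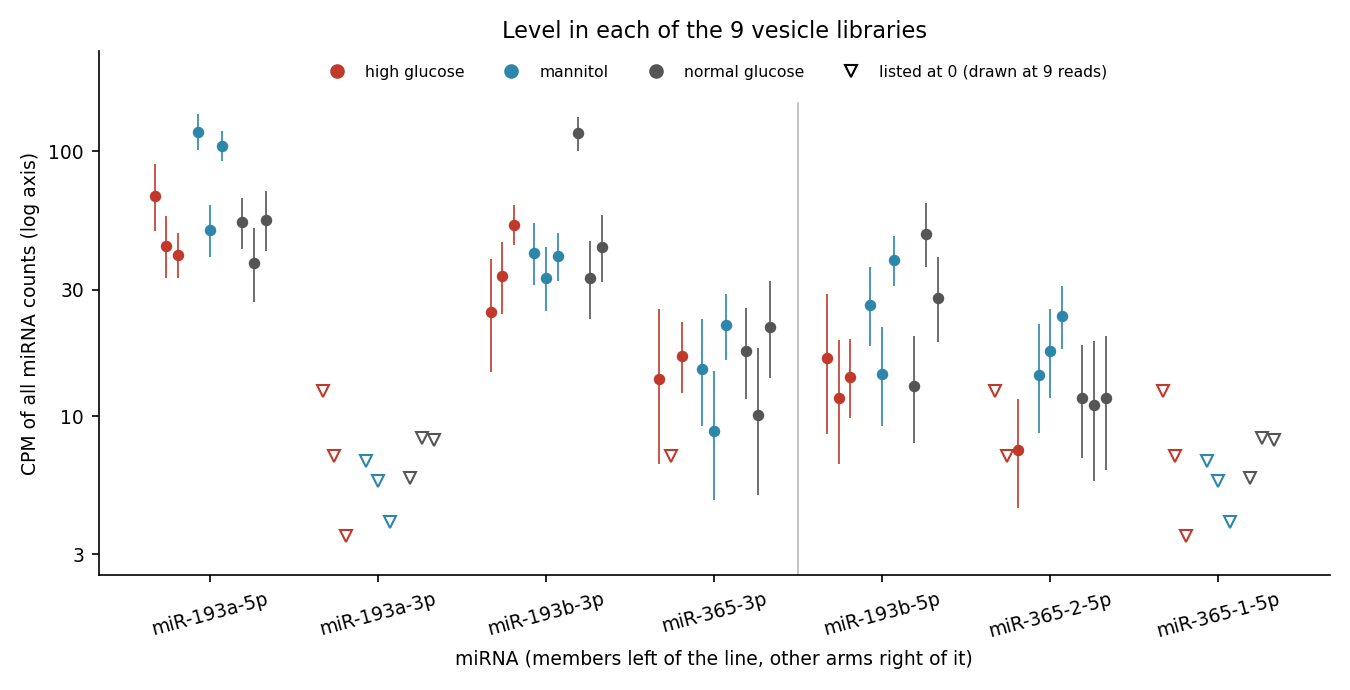
Level of each member and of the other strands of the same hairpins in the 9 libraries, in CPM of all miRNA counts on a log axis; points are libraries in the order of replicates 1 to 3, bars are 95% Poisson counting intervals, and open triangles mark a listed 0 drawn at the CPM of 9 reads. Mannitol replicates 1 and 3 are the highest for miR-193a-5p (119 and 105 CPM), normal glucose replicate 1 for miR-193b-3p (117 CPM), and miR-193a-3p and miR-365-1-5p are triangles throughout.

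**Figure D2:**
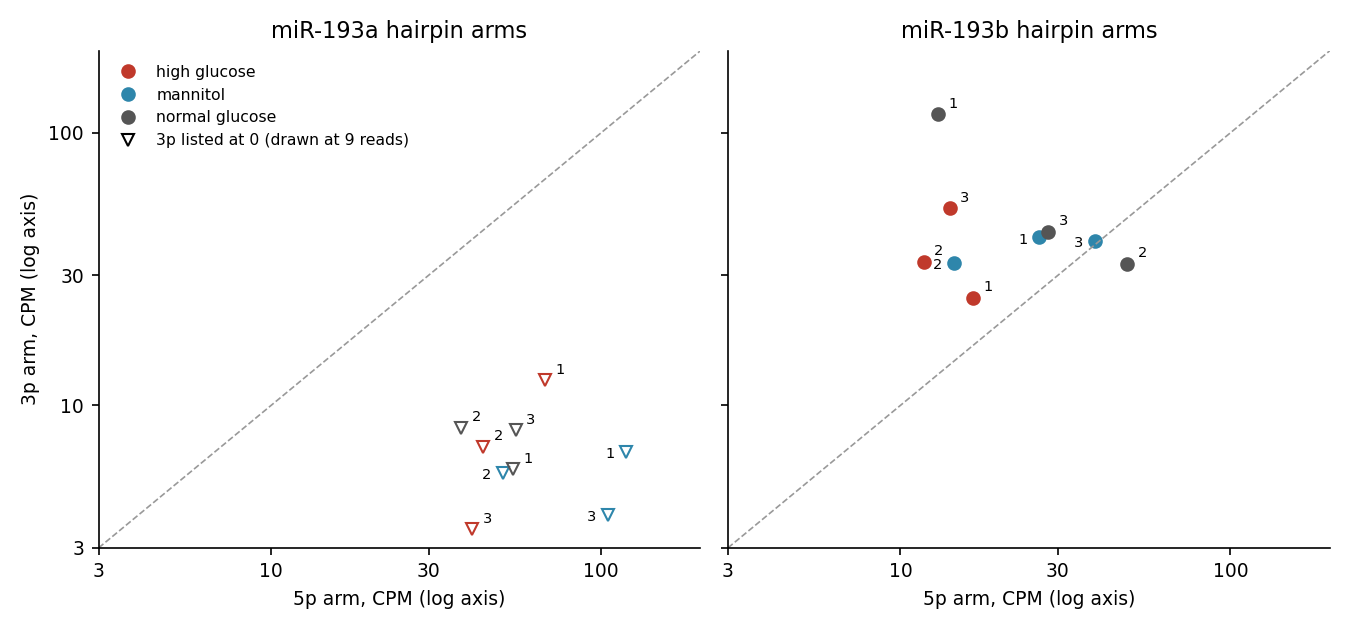
CPM of the 3p strand against CPM of the 5p strand of the miR-193a and miR-193b hairpins, both axes logarithmic, 1 point per library with its replicate number, and a dashed line where both are equal. All miR-193a points are upper limits of the 3p strand and lie below the line, while 8 of 9 miR-193b points lie above it.

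High glucose was set against normal glucose to see which members differ with the treatment as a whole. None of the 3 tested members passed. The log2 fold change of miR-193a-5p was 0.13 (SE 0.34, 95% interval -0.60 to 0.86), near 0, and its sign flipped to -0.02 when counts were scaled by the library constant of the deposited normalized values and to -0.07 without high glucose replicate 1. For miR-193b-3p it was -0.65 (SE 0.46, 95% interval -1.62 to 0.33), which became 0.08 without normal glucose replicate 1, -0.41 without high glucose replicate 1 and -1.01 without high glucose replicate 3. For miR-365-3p it was -0.60 (SE 1.21, 95% interval -3.19 to 1.98), and it rests on few reads: it was -0.0022 without high glucose replicate 2, the library with the listed 0, and -1.33 without high glucose replicate 3. It was -0.27 with listed zeros set to 9 reads, -1.38 with limma-voom and -1.10 with the title number as a block. With that block miR-193a-5p had 0.13 and miR-193b-3p -0.55. Among libraries of the same number miR-365-3p was lower in high glucose in 3 of 3, and miR-193a-5p and miR-193b-3p in 1 of 3. The share of all miRNAs lower in 3 of 3 was not counted. By edgeR's quasi-likelihood test with Benjamini-Hochberg adjustment over all 361 miRNAs, 0 miRNAs were called (0%), with a smallest adjusted p of 0.995, and 0 members had an unadjusted p under 0.05 where 10 miRNAs (2.77%) did. With 1 library left out, this count was lowest, 1, when high glucose replicate 2 was dropped and highest, 25, when mannitol replicate 2 was dropped. With the block it was 19. DESeq2 and limma-voom also called 0 miRNAs. High and normal glucose libraries overlapped for all 3 tested members, while 34 of 361 miRNAs (9.42%) had groups that did not overlap, 9 higher (2.49%) and 25 lower (6.93%) in high glucose. The median log2 fold change of all tested miRNAs was -0.04.

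High glucose was set against mannitol to separate glucose from osmolality. Here the log2 fold change was -0.70 for miR-193a-5p (SE 0.34, 95% interval -1.42 to 0.03), with an unadjusted p of 0.0583 and an edgeR adjusted p of 0.704. The groups overlapped, since high glucose replicate 1 (67.6 CPM) lay above mannitol replicate 2 (50.4 CPM). Among libraries of the same number high glucose was lower in 3 of 3, as it was for miR-365-3p, miR-193b-5p and miR-365-2-5p. For miR-193b-3p it was lower in 1 of 3, and the share over all miRNAs was not counted. With the title number as a block the value of miR-193a-5p was -0.66, with an unadjusted p under 0.05 and an edgeR adjusted p of 0.333. Without mannitol replicate 2 the value was -0.92 with an adjusted p of 0.107, and over all alternatives it lay between -1.36 (library constant) and -0.55 (without mannitol replicate 3). For miR-193b-3p the log2 fold change was 0.15 (SE 0.46, 95% interval -0.82 to 1.13), which turned to -0.29 under the library constant, to -0.03 when counts were divided by the plain sum and to -0.21 without high glucose replicate 3. For miR-365-3p it was -0.46 (SE 1.21, 95% interval -3.04 to 2.11), 0.11 without high glucose replicate 2, -0.07 without mannitol replicate 3 and -1.19 without high glucose replicate 3. It was -1.27 with limma-voom, -0.98 under the library constant, -0.30 with listed zeros set to 9 reads and -0.89 with the block. With the block miR-193b-3p had 0.18. By edgeR 0 miRNAs were called (0%), and 19 of 361 (5.26%) had an unadjusted p under 0.05, no member among them. This count was 6 (without mannitol replicate 3) to 96 (without mannitol replicate 2) with 1 library left out, 52 with the block and 62 under the library constant. The unadjusted p of miR-193a-5p was under 0.05 without mannitol replicate 2, without high glucose replicate 1, with the block, with the plain sum, under the library constant and with listed zeros set to 9 reads. limma-voom called 0 and DESeq2 called 1, miR-182-5p. Of 361 miRNAs, 37 (10.2%) had groups that did not overlap, 9 higher (2.49%) and 28 lower (7.76%) in high glucose, again with no member among them.

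Mannitol was set against normal glucose, at equal glucose, as the comparison of osmolality. In the fit over all 9 libraries the largest log2 fold change of a member was here, though not under limma-voom, the block or the library constant. The log2 fold change was 0.82 for miR-193a-5p (SE 0.34, 95% interval 0.10 to 1.55), with an unadjusted p of 0.0284 and an edgeR adjusted p of 0.9996. The groups overlapped, since mannitol replicate 2 had 50.4 CPM and normal glucose replicates 1 and 3 had 53.9 and 55.1 CPM. The value was 1.14 without mannitol replicate 2 and 0.68 without mannitol replicate 3, and the library constant gave 1.33. For miR-193b-3p it was -0.80 (SE 0.46, 95% interval -1.78 to 0.17), -0.45 under the library constant and -0.07 without normal glucose replicate 1, so that the value rests on that library. For miR-365-3p it was -0.14 (SE 1.20, 95% interval -2.70 to 2.42), with a sign that flipped to 0.40 under the library constant, to 0.03 with listed zeros set to 9 reads, to 0.08 without normal glucose replicate 3 and to 0.15 without mannitol replicate 2. By edgeR, DESeq2 and limma-voom 0 miRNAs were called (0%). An unadjusted p under 0.05 was found for 1 of the 3 tested members and for 5 of 361 miRNAs (1.39%). With 1 library left out, the count over all miRNAs was lowest, 1, when mannitol replicate 1 was dropped and highest, 36, when replicate 2 of that group was dropped. The member, miR-193a-5p, was no longer under 0.05 without normal glucose replicate 2 or 3, without mannitol replicate 1 or 3, with limma-voom or without the filter. The groups overlapped for all 3, and 12 of 361 miRNAs (3.32%) had groups that did not overlap, 8 higher (2.22%) and 4 lower (1.11%) with mannitol.

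Both media of raised osmolality together were then set against normal glucose, 6 libraries against 3. For miR-193a-5p the log2 fold change was 0.48 (SE 0.30, 95% interval -0.16 to 1.12). That of miR-193b-3p was -0.72 (SE 0.39, 95% interval -1.55 to 0.10), and 0.00 without normal glucose replicate 1. That of miR-365-3p was -0.37 (SE 1.03, 95% interval -2.57 to 1.83), and -0.06 without high glucose replicate 2. By edgeR, DESeq2 and limma-voom 0 miRNAs were called (0%). Of 361 miRNAs, 2 (0.554%) had an unadjusted p under 0.05 in edgeR and 1 (0.277%) had groups that did not overlap, and no member was among them. With 1 library left out, 1 to 13 had an unadjusted p under 0.05, among them miR-193a-5p without mannitol replicate 2 and miR-193b-3p without normal glucose replicate 2 or 3 or without high glucose replicate 3. The comparisons with normal glucose have those 3 libraries in common and are not independent.

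**Figure D3:**
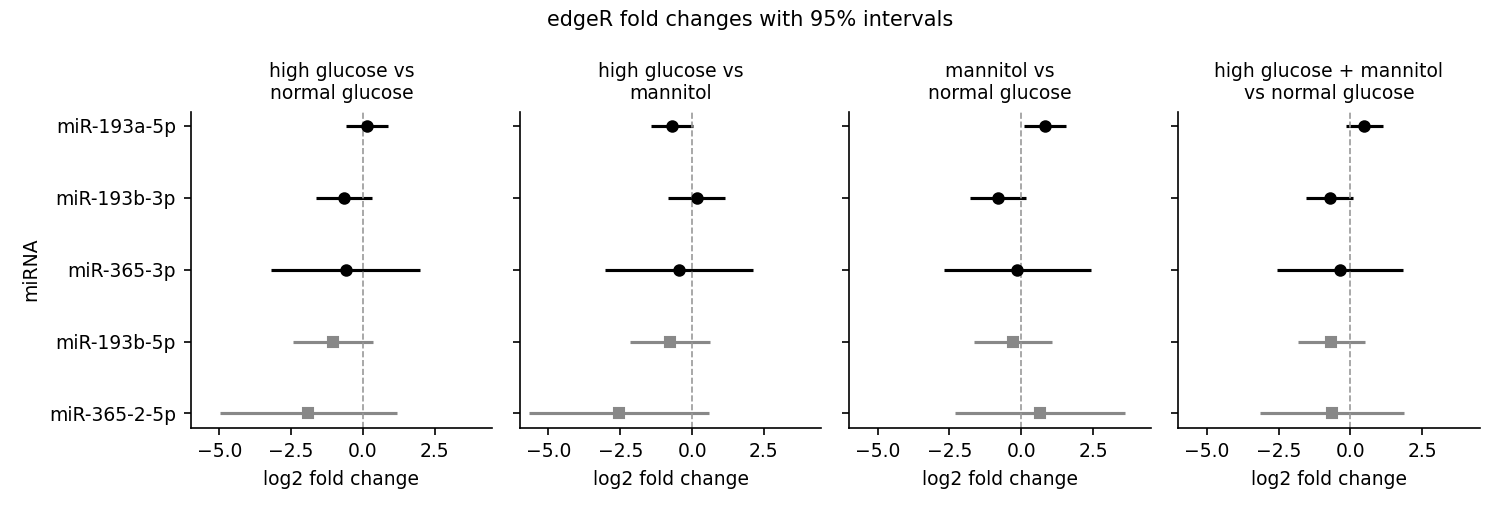
Log2 fold changes from the edgeR fit over 9 libraries for the 3 tested members (black circles) and for miR-193b-5p and miR-365-2-5p (grey squares) in each comparison, with 95% intervals. The interval of miR-193a-5p in mannitol against normal glucose, 0.10 to 1.55, is the only one of a member that does not span 0, and its adjusted p was 0.9996.

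**Figure D4:**
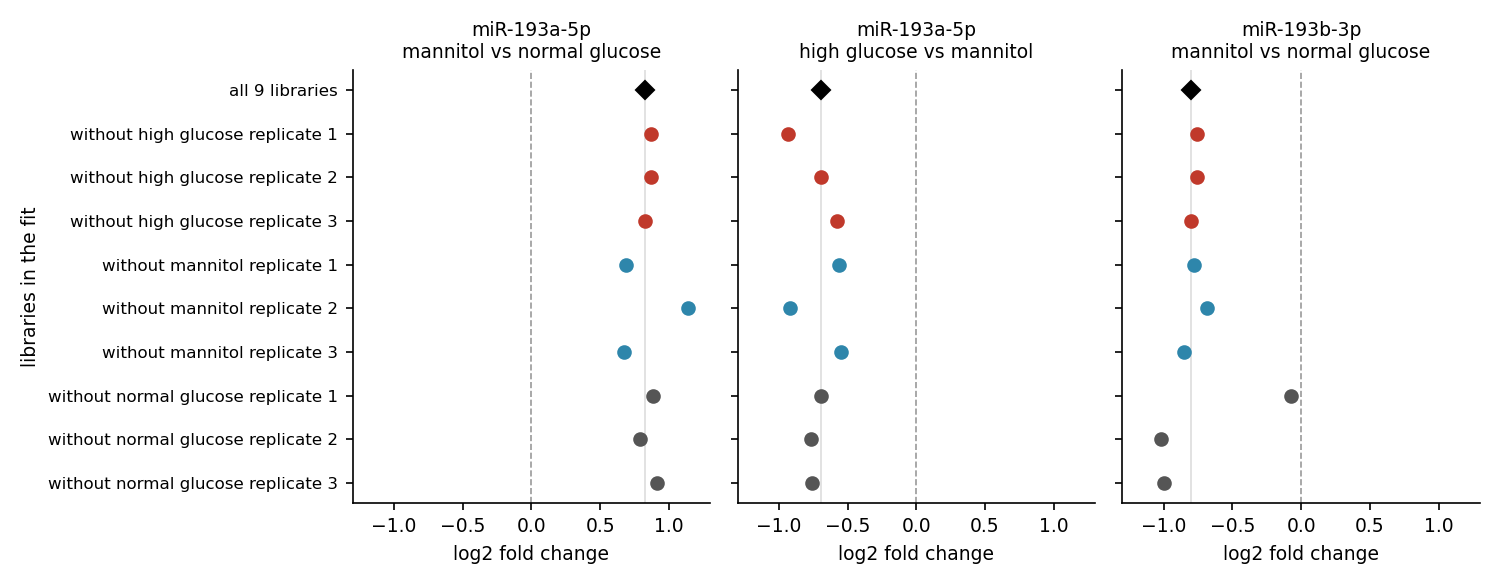
Log2 fold changes of miR-193a-5p in mannitol against normal glucose and in high glucose against mannitol, and of miR-193b-3p in mannitol against normal glucose, when each library is left out in turn (points, coloured by the group of that library), below the value with all 9 libraries (diamond and grey line). For miR-193b-3p the value without normal glucose replicate 1, -0.07, lies away from the rest, whereas miR-193a-5p stays between 0.68 and 1.14 against normal glucose and between -0.94 and -0.55 in high glucose against mannitol.

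The neighbouring genes were also compared within libraries, where scaling drops out. Because reads of miR-365-3p can come from either of its hairpins, the ratio is not specific to chromosome 16. The count of miR-365-3p over that of miR-193b-3p was 0.556 and 0.319 in high glucose replicates 1 and 3, with no value in replicate 2. It was 0.364, 0.264 and 0.549 with mannitol and 0.150, 0.306 and 0.500 in normal glucose. The lowest of these values belonged to normal glucose replicate 1, where miR-193b-3p was highest. High glucose replicate 2 had a listed 0 of miR-365-3p against 43 reads of miR-193b-3p, which allows a ratio below that one. Its absence raises the high glucose mean of the log2 ratio used below. With listed zeros set to 9 reads, the difference in high glucose against mannitol turned negative. The difference in mean log2 ratio was 0.57 for high against normal glucose (exact permutation p = 0.4, smallest possible 0.2), 0.17 for high glucose against mannitol (exact permutation p = 0.8) and 0.40 for mannitol against normal glucose (exact permutation p = 0.6). The signs of the last 2 differences turned with 1 library left out: 0.17 became -0.24 without high glucose replicate 1 and -0.09 without mannitol replicate 2, and 0.40 became -0.06 without normal glucose replicate 1. All 8 ratio tests, these and those of the miR-193b strands, were two-sided and had a Benjamini-Hochberg adjusted exact p of 1.

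Members were also compared over the 9 libraries on log2 TMM-scaled CPM. For miR-193a-5p and miR-365-3p, whose chromosome 11 genes are neighbours, Pearson's r was 0.203 (exact permutation p = 0.578) and Spearman's rho 0.167 (exact permutation p = 0.678), and r was -0.0923 without the 2 libraries farthest from the median of miR-193a-5p. For miR-193b-3p and miR-365-3p, neighbours on chromosome 16, r was 0.169 (exact permutation p = 0.505) and rho 0.267 (exact permutation p = 0.493). Without the 2 libraries farthest from the median of miR-193b-3p, r was 0.174. Neither check left out high glucose replicate 2, where miR-365-3p was listed at 0. Reads of miR-365-3p can come from either of its hairpins, so neither r is specific to a chromosome. For miR-193a-5p and miR-193b-3p, from different chromosomes, r was -0.277 (exact permutation p = 0.455) and rho -0.467 (exact permutation p = 0.213), and r was -0.343 without the 2 farthest. With adjustment over the 3 pairs the smallest adjusted exact p of r was 0.578. The levels depend on the scaling: by the library constant r was 0.557, 0.513 and 0.493 for the same pairs, each with an adjusted exact permutation p of 0.179, while rho was 0.733, 0.817 and 0.800 with adjusted exact permutation p of 0.0311, 0.0207 and 0.0207. Libraries share that constant over all their miRNAs. Against the other strand, miR-365-3p and miR-365-2-5p had an r of 0.640, at place 19 of 360 tested miRNAs ranked by r with miR-365-3p. Both were listed at 0 in high glucose replicate 2, and miR-365-2-5p also in replicate 1. These zeros enter that r, which was not computed without them. The strands of miR-193b had -0.297, at place 325 of 360 for miR-193b-3p.

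For each member, the miRNAs with the most similar pattern over the 9 libraries were sought among those listed in all 9 libraries. The members and the other strands of their hairpins were left out of this ranking, so only other miRNAs could be found. Nearest to miR-193a-5p were miR-744-5p (r = 0.947), miR-760-3p (r = 0.881) and miR-574-3p (r = 0.848), against a median r of -0.0955 over 257 candidates. These correlations describe 9 libraries, and the points have library and scaling in common. Like miR-193a-5p, miR-744-5p was highest in mannitol replicates 1 and 3: it had 2031, 1482 and 1324 CPM in high glucose, 3619, 1565 and 2990 CPM in mannitol libraries and 2103, 1486 and 1716 CPM in normal glucose. Without the 2 libraries farthest from the median of miR-193a-5p, mannitol replicates 1 and 3, r was 0.614, 0.205 and 0.360 for these 3. Their GC content was 63.6%, 70.0% and 59.1%, and that of miR-193a-5p 54.5%.

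Nearest to miR-193b-3p were miR-181b-5p (r = 0.839), miR-181a-5p (r = 0.702) and miR-532-3p (r = 0.692), against a median of 0.0518. Without the 2 farthest libraries these were 0.0566, 0.364 and 0.371. Their GC content was 45.8%, 47.8% and 63.6%, and that of miR-193b-3p 59.1%. Nearest to miR-365-3p were miR-324-3p (r = 0.797), let-7b-3p (r = 0.778) and miR-455-5p (r = 0.765), against a median of -0.0037. Without the 2 farthest libraries miR-455-5p had an r of 0.929, and the other 2 had 0.294 and 0.113. GC content was 70.0%, 50.0% and 45.5% for miR-324-3p, let-7b-3p and miR-455-5p, and 31.8% for miR-365-3p.

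A list of 19 podocyte and kidney miRNAs gives the setting of the members among miRNAs linked to this cell. It holds 5p strands of the miR-30 family and 3p strands of the miR-29 family, which in kidney guard podocyte structure and restrain collagen genes. It also holds miR-21a-5p and miR-192-5p, which are linked to fibrosis. Of its 19 miRNAs 16 were tested, and 0 passed in either direction in any comparison. Their median log2 fold change was 0.16 in high against normal glucose, 0.40 in high glucose against mannitol and -0.13 in mannitol against normal glucose, where the median over everything tested was -0.04, -0.04 and 0.01 in these same 3 comparisons. Its member miR-135a-5p was listed at 0 in all 9 libraries.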

How the data were processed

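Small RNA libraries of vesicle RNA (9, 3 per group) were deposited as tables of 1915 miRNAs. Per the file headers, each table holds the authors' total count per miRNA, used as deposited, and a normalized value in RPM, which equals the count scaled by a constant per library. BWA, bcl2fastq and build mm10 are named per the submitters' processing notes. Tool versions and the meaning of the constant were not given in the sources used here. In each group the title without a number was called replicate 1, and the labels do not say that a number marks a shared culture or day. Deviations from the group means of same-numbered libraries correlated at 0.197 to 0.316 between high and normal glucose, 0.169 to 0.521 between high glucose and mannitol, and -0.0583 to 0.229 between mannitol and normal glucose (3 pairs each). Between libraries of unlike number the range was -0.451 to 0.199, which overlaps the range of each comparison. Each of the 9 libraries correlated best with a same-numbered one. The correlations thus do not settle for which comparisons pairing by number holds. Intervals and p-values of the main fit do not use the number, and block values are given for part of the results. The correlations were read per comparison after the fits had been seen.

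CPM was computed over all miRNA counts. edgeR 4.0.16 in R 4.3.3 (TMM scaling, expression filter by group, robust quasi-likelihood test, Benjamini-Hochberg adjustment, threshold 0.05) fitted all 9 libraries together and was tested on simulated data. Alternatives used DESeq2 1.42.0, limma 3.58.1, other scalings, no filter, listed zeros set to 9 reads, the groups compared only, the title number as a block, and each library left out. Correlations used log2 CPM with a prior count of 2. Permutation tests were enumerated exactly in Python 3.11.15 with SciPy 1.17.1. A chi-square comparison of counts found no library of a group to be a repeat of another.

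The members and lists were chosen with earlier results of these data known. Named were the members, the other strands of their hairpins, the 3 miRNAs with the highest r for each member, and list members past the threshold. The search of Wt1, the miR-193b strand ratio and miR-182-5p, miR-1a-3p, miR-142a-3p, miR-204-5p and miR-135a-5p were added after values had been seen.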

Additional observations from a re-analysis of the deposited data

How the results depend on the processing

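No member passed the threshold under any of the 18 alternatives of a comparison, and 342 of 360 alternative fold changes of members and other strands kept their sign. These 360 values refit the same libraries for 20 fold changes, of which 11 kept their sign under every alternative. Over all miRNAs, testing without a filter called 2 in high against normal glucose, 3 in high glucose against mannitol and 1 in mannitol against normal glucose. The last was miR-1a-3p of the brown fat and muscle list, which was also among the 3 called in high glucose against mannitol. DESeq2 called 1 in high glucose against mannitol, as did the fit without mannitol replicate 2 (range 0 to 1 with 1 library left out). Listed zeros set to 9 reads called 1 in mannitol against normal glucose and 1 in both media together against normal glucose. Signs turned under the library constant for miR-193a-5p in high against normal glucose (-0.0228), miR-193b-3p in high glucose against mannitol (-0.29), and miR-365-3p (0.40) and miR-193b-5p (0.48) in mannitol against normal glucose, and r of miR-193a-5p and miR-193b-3p became 0.49. That scaling moved the median of all miRNAs to -0.12 in high against normal glucose, -0.63 in high glucose against mannitol and 0.50 in mannitol against normal glucose, and relative to it miR-193a-5p stood at 0.10 in high against normal glucose, -0.73 in high glucose against mannitol and 0.83 in mannitol against normal glucose. Signs also turned for miR-193b-3p in high glucose against mannitol with the plain sum (-0.0254), miR-193b-5p in mannitol against normal glucose with limma-voom (0.21), and with zeros set to 9 reads for miR-365-3p in mannitol against normal glucose (0.0305), miR-365-2-5p in both media together (0.21) and the miR-365-3p over miR-193b-3p ratio in high glucose against mannitol (-0.17). Without its 2 farthest libraries, r of miR-193a-5p and miR-365-3p was -0.0923. With 1 library left out, ranges spanning 0 in high against normal glucose were -0.0667 to 0.25 for miR-193a-5p, -1.01 to 0.0783 for miR-193b-3p and -0.56 to 1.301 for the miR-193b strand ratio. In high glucose against mannitol they were -0.21 to 0.35 for miR-193b-3p, -1.19 to 0.11 for miR-365-3p and -0.24 to 0.57 for the miR-365-3p ratio. In mannitol against normal glucose they were -0.53 to 0.15 for miR-365-3p, -0.71 to 0.43 for miR-193b-5p, -0.0594 to 0.81 for the miR-365-3p ratio and -1.27 to 0.60 for the strand ratio. In both media together they were -0.97 to 0.0038 for miR-193b-3p, -1.05 to 0.0296 for miR-193b-5p and -0.91 to 0.95 for the strand ratio. The cause of these changes was not tested. With the replicate block 0 members and 0 miRNAs were called, and the miR-365-3p ratio turned to -0.0876 in high glucose against mannitol. With it miR-193a-5p had 0.80 in mannitol against normal glucose. There mannitol was the higher of 3 of 3 same-numbered pairs for miR-193a-5p, as for miR-365-2-5p, a share not counted over all miRNAs. Ratios with miR-193a-3p gave no value, as it was listed at 0 in all 9 libraries, and the log2 fold changes of -7.00 and -7.64 for miR-365-2-5p without high glucose replicate 3 set 2 listed zeros against other groups and measure no size. At 10 to 50 reads, miR-365-3p allows no finer statement.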
